A study of Rattus norvegicus with 7 samples.

Results

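The 14-3-3 proteins are small dimeric adaptors that dock onto phosphorylated serine and threonine residues of other proteins and so hold them in the cytoplasm, block their activity or shield them from phosphatases. In the Hippo pathway they retain the growth coactivator YAP in the cytoplasm once the Lats kinases have phosphorylated it, and in the cell cycle they retain the Cdc25 phosphatases that switch on mitotic kinases. Mammals carry 7 genes for them. The 6 described here are Ywhah (the eta protein), Ywhab (beta), Ywhae (epsilon), Ywhag (gamma), Ywhaq (theta) and Ywhaz (zeta). They were taken by gene symbol from the 17141 genes of the expression table, which held each of the 6 once, and all 6 had a mean of at least 1 RPKM (a read number per length of gene and per size of library), as did 12330 genes in all. Ywhah was singled out because it was higher in all 6 miRNA libraries, so its difference from the control is a description of why it was picked and supports nothing further.

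The study looked for pathways common to microRNAs (miRNAs) that drive heart muscle cell proliferation. Cells from the ventricles of wild-type Wistar rats at postnatal day 0, cleared of part of the other cell types by a first plating and called mostly cardiomyocytes in the labels' protocols, received 1 synthetic miRNA each by lipid transfection at 25 nM. RNA was taken 72 h later. The 6 miRNA groups carried human sequences: miR-199a-3p and miR-590-3p, the seed-sharing pair of miR-373-3p with miR-302d-3p, and miR-33b* and miR-1825. The control was cel-miR-67, a nematode miRNA that is the denominator of the authors' deposited ratios, and all 6 comparisons share this 1 library. Runs of 6 values without names keep the order in which the miRNAs were just listed. Each group was 1 library, and the labels do not say how many animals went into one, so no difference has a replicate check and no p-value is given. Changes are log2 of (RPKM + 1) in a miRNA library over (RPKM + 1) in the cel-miR-67 library. Intervals in brackets are exact 95% intervals from the recovered read numbers and cover counting error only. They say how well 2 libraries were measured, not how 2 conditions differ.

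The libraries held 22616067 to 31963293 reads in the listed genes, and each of the 6 genes had between 1125 and 8271 reads in every library. The size by which the deposited RPKM had been scaled differed from these totals, which were 85.55% (miR-199a-3p) to 109.5% (cel-miR-67) of it, so that the values between libraries rest on the authors' scaling. RefSeq names pseudogene copies of Ywhaq (5), Ywhaz (2), Ywhah (1) and Ywhag (1), and reads shared with such copies could have been split in the counting. Heart muscle markers were abundant throughout: the 8 listed genes summed to 10298 to 12331 RPKM in the miRNA libraries and 12738 RPKM in the cel-miR-67 library. Actc1 was the largest part, at 5584 to 7059 RPKM, against 7073 RPKM. Actc1, Myh6, Actn2 and Ryr2 were below their control level in every miRNA library. Tnnt2, Tnni3, Myh7 and Nkx2-5 lay on both sides of theirs, with Tnni3 at 138.5 to 469.1 RPKM, against 351.4 RPKM. Marker sums of other cell types also differed. Smooth muscle markers (4 of 4 found) summed to 756 to 1157 RPKM in the miRNA libraries, against 745 RPKM in cel-miR-67. The 4 did not move alike: Cnn1 stood at 151 to 298 RPKM in the miRNA libraries, against 88.8 RPKM in cel-miR-67, while Myh11 was below its control level of 13.85 RPKM in all miRNA libraries except miR-199a-3p (6.12 to 9.40 RPKM, and 16.01 RPKM with miR-199a-3p). Acta2 and Tagln lay on both sides of the control. Fibroblast markers (7 of 7) summed to 327 to 433 RPKM, against 494 RPKM, and endothelial markers (5 of 6) to 13.3 to 17.0 RPKM, against 21.6 RPKM. These lists did not move alike either. Postn was at 38.3 to 56.8 RPKM, against 106.8 RPKM, but Lum was above its control in every miRNA library (5.95 to 8.49 RPKM, against 5.52 RPKM). Eng was at 8.60 to 12.4 RPKM, against 15.6 RPKM, but Tek was above its 2.09 RPKM in all except miR-590-3p. Epicardial markers (3 of 3) summed to 8.61 to 15.6 RPKM, against 16.7 RPKM, macrophage and leukocyte markers (4 of 4) to 4.0 to 6.37 RPKM, against 6.54 RPKM, and erythroid markers (2 of 3) to 2.08 to 5.01 RPKM, against 3.44 RPKM. In these lists Upk3b, Csf1r and Hbb lay on both sides of their control level. None of the markers found was at 0 in any library. Mitochondrial transcripts made up 39.0% to 52.6% of the RPKM in the miRNA libraries and 53.1% in the cel-miR-67 library. The part of these differences in the results below was not tested, and in bulk RNA fewer cells of a type and less RNA per cell cannot be told apart.

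Sequences are shown where the values stand out: the promoter of Ywhah, and the miRNA with which Ywhae was low. The bases just before the transcription start of rat Ywhah are given because this gene differed from the control in all 6 miRNA libraries (RefSeq, build GRCr8, chr14:81930203-81930452, minus strand, written 5′ to 3′ along the gene). Capitals mark matches to the motifs searched.
Ywhah: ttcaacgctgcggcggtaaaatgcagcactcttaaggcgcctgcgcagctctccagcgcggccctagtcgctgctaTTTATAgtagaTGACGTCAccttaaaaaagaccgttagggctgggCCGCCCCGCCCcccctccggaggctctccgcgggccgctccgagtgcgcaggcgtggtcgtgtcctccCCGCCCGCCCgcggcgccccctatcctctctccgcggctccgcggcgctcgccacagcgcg
The full cyclic AMP response element TGACGTCA stood 163 bases before the start. Among 27457 rat promoters of the same length, 1.7% held this motif on either strand, and of the members' promoters in the table (Ywhah, Ywhab, Ywhae, Ywhag and Ywhaq) Ywhah alone did. Ywhah also held TATAAA on the opposite strand, 174 bases before the start, which 13.1% of promoters held and none of the other 4 did. GC boxes (GGGCGG, either strand, overlapping copies counted) numbered 4 in Ywhah and between 1 and 4 in the other 4 promoters, against 32.4% of all promoters with at least 1. CCAAT was absent from Ywhah and Ywhae and present in Ywhab, Ywhag and Ywhaq, and 34.3% of all promoters held it. The E-box CACGTG, the cell cycle element TTTGAA, the TEAD motif GGAATG and the E2F motif TTTGGCGC, held by 5.79%, 16%, 11.8% and 0.426% of promoters, were in none of the 5. G and C made up 65.2% (Ywhab) to 69.2% (Ywhae) of the 5 promoters and 68.8% in Ywhah, against a median of 52% over all promoters. The shares over all promoters are therefore not from sequences of like composition. The motifs were chosen with the sequences in view, and a match is a run of letters, not a shown binding site.

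miR-199a-3p is shown as its rat form of the same name (RefSeq, GRCr8, chr13:77116294-77116315, plus strand), with bases 2 to 8, the seed that pairs with target transcripts, in capitals.
rno-miR-199a-3p: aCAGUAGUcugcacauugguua
The transfected molecule was the human sequence. No transcript sequence was searched for sites of this seed.

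Ywhah was between 2.2-fold and 2.6-fold higher in every miRNA library than in the control. It stood at 61.9 RPKM with miR-199a-3p, 53.9 RPKM with miR-590-3p, 52.5 RPKM with miR-373-3p, 53.3 RPKM with miR-302d-3p, 53.2 RPKM with miR-33b* and 53.1 RPKM with miR-1825, against 23.5 RPKM with cel-miR-67. The 6 miRNA libraries lay close together and far above the control, with miR-199a-3p the highest. The ratio to cel-miR-67 was 2.63 (2.49 to 2.79) after miR-199a-3p and lay between 2.24 (2.11 to 2.37, miR-373-3p) and 2.30 (2.16 to 2.44, miR-590-3p) after the other 5. On the log2 scale the changes were 1.36, 1.17, 1.13, 1.15, 1.15 and 1.14 in the order above. Ywhah was 1 of 6 genes at least 2-fold higher in all 6 libraries, beside the mitosis genes Ccnb1, Pttg1 and Cenpf, the mitochondrial ribosome gene Mrps12 and AC120692.1, a gene of the miRNA class. These are 0.0487% of the genes tested. By its lowest change Ywhah ranked at place 4 of 12330. No member was at least 2-fold lower in all 6, as was 0.00811% of the genes.

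**Figure D1:**
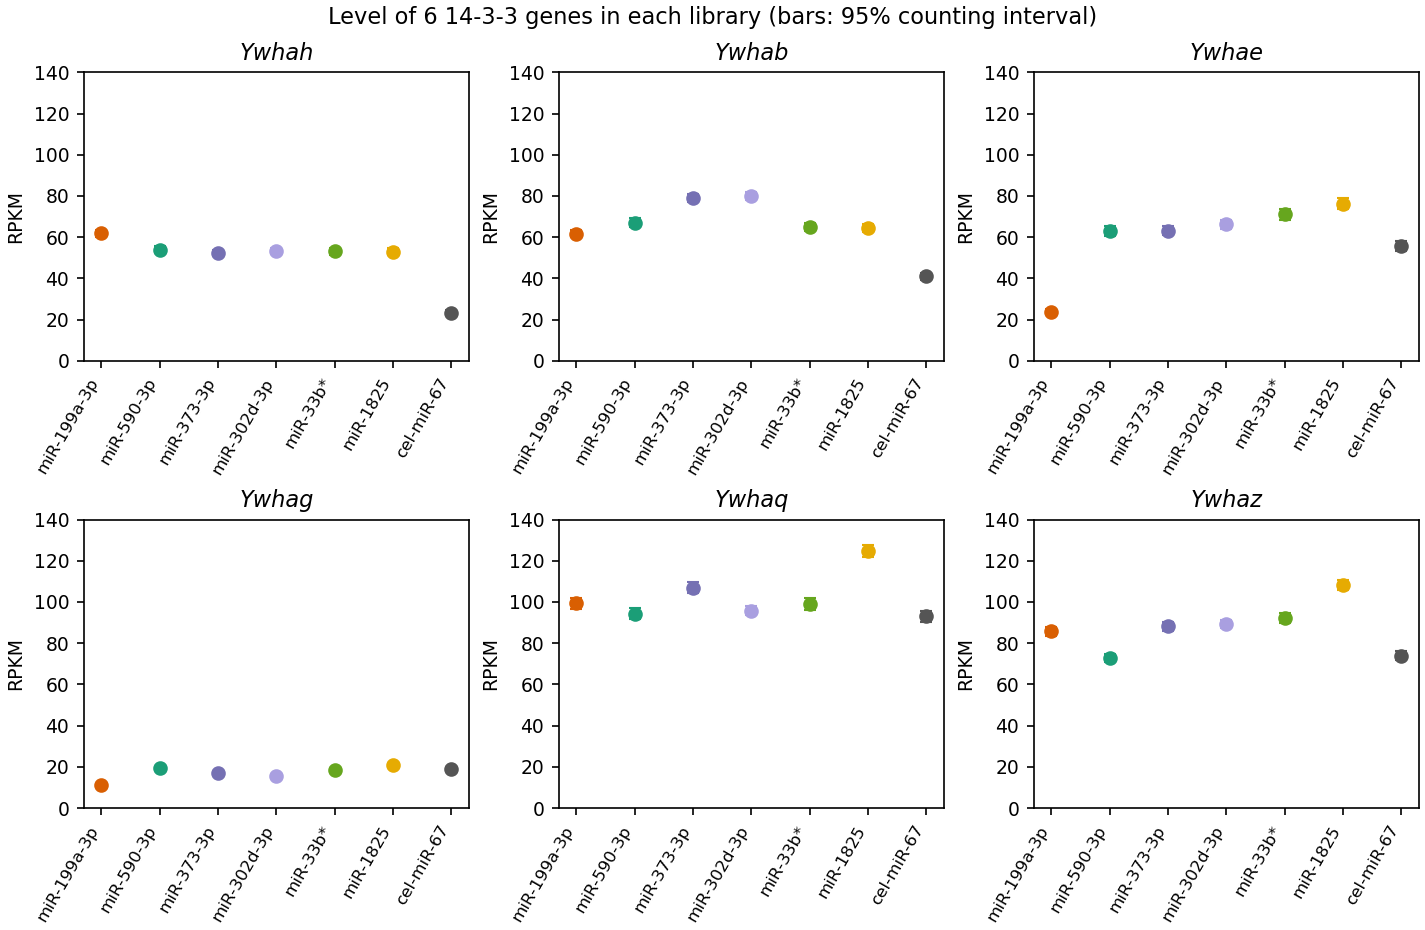
RPKM (vertical axes, from 0) of the 6 genes in each library, with the 6 miRNA libraries on the left and cel-miR-67 on the right of each panel. Points are single libraries and bars are 95% counting intervals. Ywhah sits at 52.5 to 61.9 RPKM in the miRNA libraries and at 23.5 RPKM in cel-miR-67, and Ywhae drops to 23.9 RPKM after miR-199a-3p.

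How alike the 6 miRNA libraries were in Ywhah does not involve the control. Their values were part of why Ywhah was picked, though, so its spread is a description too. The standard deviation of log2 (RPKM + 1) over these 6 was 0.088 for Ywhah, and 7.56% of the 2552 genes with a mean of 20 to 200 RPKM in the miRNA libraries had a smaller one. Their median was 0.19. The paralogs spread more, with standard deviations of 0.15 for Ywhaq, 0.16 for Ywhab, 0.18 for Ywhaz, 0.31 for Ywhag and 0.61 for Ywhae. Only 1 of the 72 genes past the 1.5-fold limit upward in all 6 libraries spread less over them than Ywhah. Those 72 were chosen through the control and not matched to Ywhah in level. Of them, 56 averaged 5 RPKM or more, and counting error widens the spread of genes with few reads. Set against the remaining 5 miRNA libraries, averaged, the miR-199a-3p library had Ywhah at 0.21 and the remaining libraries had it at -0.065 to -0.020. Set against the mean of all 6 miRNA libraries, the cel-miR-67 library was at -1.18 for Ywhah, place 39 from the bottom of 12330 genes. With a single control library, a shared response to the 6 miRNAs and a low value particular to that library cannot be told apart.

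Ywhab, the beta paralog, was the other member higher in all 6 libraries by a margin beyond counting error. It measured 61.7 RPKM with miR-199a-3p, 67.1 RPKM with miR-590-3p, 78.9 RPKM with miR-373-3p, 79.9 RPKM with miR-302d-3p, 64.8 RPKM with miR-33b* and 64.6 RPKM with miR-1825, against 41.0 RPKM with cel-miR-67. Cells given the seed-sharing miR-302d-3p or miR-373-3p were the highest, and the control was the lowest. Ratios to cel-miR-67 ran from 1.504 (1.43 to 1.58, miR-199a-3p) to 1.95 (1.86 to 2.04, miR-302d-3p), and log2 changes from 0.58 to 0.95. The lowest of these fell just short of the 1.5-fold limit on the (RPKM + 1) scale, so that 1 of the 6 members (Ywhah) passed that limit in all 6 libraries, against 0.584% of all genes tested. None passed it downward in all 6, against 0.211%. With a pseudocount of 0.1 instead of 1, or with libraries scaled to equal sums of all genes or of genes outside the mitochondrial genome, Ywhab passed too and the count was 2. In the same order of settings, 129, 161 and 74 of the 12330 genes tested passed upward in all 6.

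**Figure D2:**
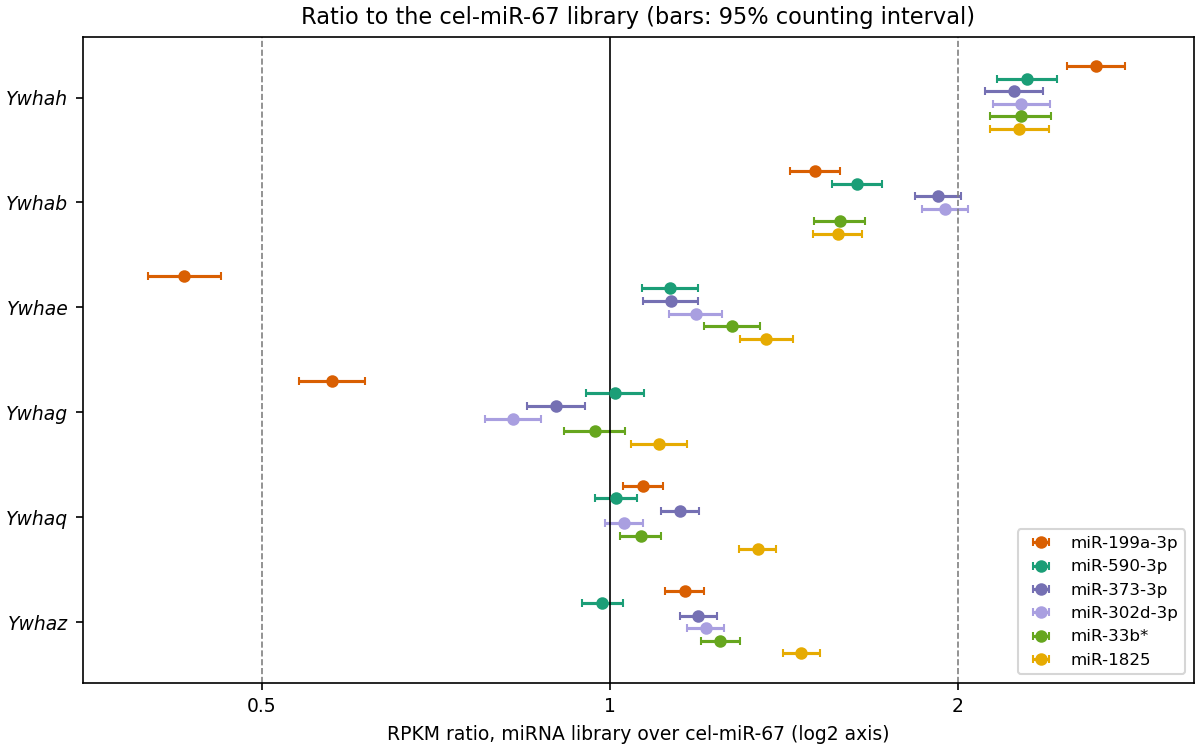
Ratio of RPKM in each miRNA library to the cel-miR-67 library (horizontal log2 axis) for the 6 genes, with 95% counting intervals as bars, a solid line at 1 and dashed lines at 0.5 and 2. All Ywhah points lie above 2, all Ywhab points lie between 1.504 and 1.95, and the miR-199a-3p points of Ywhae (0.428) and Ywhag (0.575) lie apart on the left.

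Ywhae, the epsilon protein gene, was low after miR-199a-3p and slightly high after the other 5 miRNAs. It stood at 23.9 RPKM with miR-199a-3p, 62.9 RPKM with miR-590-3p, 63.0 RPKM with miR-373-3p, 66.2 RPKM with miR-302d-3p, 71.2 RPKM with miR-33b* and 76.3 RPKM with miR-1825, against 55.9 RPKM with cel-miR-67. The miR-199a-3p library was below all others, and its interval of 22.5 to 25.4 RPKM overlapped none of theirs. Its ratio to cel-miR-67 was 0.428 (0.398 to 0.461), a log2 change of -1.19, while the other 5 ratios were 1.13 to 1.37 (log2 0.17 to 0.44). It stood at place 114 from the bottom and was the 1 member at least 2-fold lower in that comparison, where 1.52% of genes were. No member was in the others, where 0.762% of genes were with miR-590-3p, 1.87% with miR-373-3p, 2.11% with miR-302d-3p, 1.24% with miR-33b* and 1.63% with miR-1825. Against the average of the 5 remaining miRNA libraries, which leaves the control out, it was at -1.46 and at place 34 from the bottom of 12330 genes. With libraries scaled to equal sums over all genes it was at -0.72, no longer 2-fold lower. That scaling moved the median of all genes after miR-199a-3p to 0.41, and Ywhae stood 1.13 below it (-1.13 on the log2 scale).

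Ywhag, the gamma protein gene and the least abundant of the 6, had its lowest value in the same library. It stood at 11.1 RPKM with miR-199a-3p, 19.4 RPKM with miR-590-3p, 17.3 RPKM with miR-373-3p, 15.8 RPKM with miR-302d-3p, 18.6 RPKM with miR-33b* and 21.2 RPKM with miR-1825, against 19.2 RPKM with cel-miR-67. The ratio after miR-199a-3p was 0.575 (0.538 to 0.614), log2 -0.75, and 3.16% of genes lay lower there. The pair with a common seed was also below the control, at a ratio of 0.898 (0.848 to 0.951) for miR-373-3p and of 0.824 (0.779 to 0.872) for miR-302d-3p. After miR-590-3p and miR-33b* the intervals held 1, and after miR-1825 the ratio was 1.10 (1.04 to 1.17). Scaling to equal sums over all genes lifted the median of all genes by 0.22 with miR-373-3p, 0.295 with miR-302d-3p and 0.11 with miR-33b*, and put Ywhag at 0.09, 0.05 and 0.09 there. Relative to that median it stayed below 0, at -0.13, -0.25 and -0.020. With miR-199a-3p it was at -0.29, and at -0.71 relative to the median.

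Ywhaq and Ywhaz, the theta and zeta protein genes, were the most abundant members in every library and lay within 1.5-fold of the control in all 6 comparisons. Ywhaq stood at 99.4 RPKM with miR-199a-3p, 94.2 RPKM with miR-590-3p, 107 RPKM with miR-373-3p, 95.7 RPKM with miR-302d-3p, 98.9 RPKM with miR-33b* and 125 RPKM with miR-1825, against 93.1 RPKM with cel-miR-67. All 6 were above the control by 0.02 to 0.42 on the log2 scale, though for miR-590-3p and miR-302d-3p the interval of the ratio held 1. Ywhaz stood at 85.8 RPKM with miR-199a-3p, 72.8 RPKM with miR-590-3p, 88.1 RPKM with miR-373-3p, 89.4 RPKM with miR-302d-3p, 92.1 RPKM with miR-33b* and 108 RPKM with miR-1825, against 73.9 RPKM with cel-miR-67. Its log2 change was -0.02 after miR-590-3p, where the interval held 1, and 0.21 to 0.54 after the others. Scaling to equal sums over all genes put the value for miR-590-3p at 0.0020, and at -0.017 relative to the median of all genes. For both genes miR-1825 gave the highest value, with ratios of 1.34 (1.29 to 1.39) and 1.46 (1.41 to 1.52). Among members, Ywhah, Ywhab and Ywhaq were above 0 in all 6 libraries, as were 13.9% of all genes tested.

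The order of the 6 genes by RPKM was Ywhaq, Ywhaz, Ywhae, Ywhab, Ywhah, Ywhag in the cel-miR-67 library, and it was the same after miR-33b* and miR-1825. With both members of the seed-sharing pair Ywhab stood above Ywhae, and with miR-590-3p it did so with overlapping counting intervals. After miR-199a-3p the order was Ywhaq, Ywhaz, Ywhah, Ywhab, Ywhae, Ywhag, with Ywhah and Ywhab within each other's interval. No other neighbours overlapped in any library. The 2 libraries of miR-302d-3p and miR-373-3p differed little: the ratio of the first to the second was 1.01 for Ywhah (0.975 to 1.06), Ywhab (0.980 to 1.05) and Ywhaz (0.983 to 1.05). It was 1.05 (1.00 to 1.10) for Ywhae, 0.918 (0.870 to 0.968) for Ywhag and 0.894 (0.865 to 0.925) for Ywhaq. The spread between cultures was not measured for any of these.

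The summed level of the 6 genes was 344 RPKM with miR-199a-3p, 370 RPKM with miR-590-3p, 407 RPKM with miR-373-3p, 400.4 RPKM with miR-302d-3p, 399 RPKM with miR-33b* and 448 RPKM with miR-1825, against 306.5 RPKM with cel-miR-67. All 6 sums were above the control, by 0.16 (miR-199a-3p) to 0.55 (miR-1825) on the log2 scale. Without Ywhah the sum was 282 RPKM after miR-199a-3p, slightly below the 283 RPKM of cel-miR-67, and 317 to 395 RPKM after the others. The median change of the 6 members was 0.15, 0.09, 0.23, 0.26, 0.33 and 0.49 in the order of the miRNAs, against -0.0030 to 0.015 over all genes tested. That median includes Ywhah, which was picked for being higher. For the 5 paralogs alone it was 0.09, 0.02, 0.20, 0.24, 0.31 and 0.44. In each of the 6 comparisons 1 member (Ywhah) was at least 2-fold higher. The same limit was passed by 1.04% of genes with miR-199a-3p, 1.51% with miR-590-3p, 1.15% with miR-373-3p, 1.31% with miR-302d-3p, 1.3% with miR-33b* and 2% with miR-1825.

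Shares within a library do not depend on how libraries were scaled to each other. Ywhah made up 18.0% of the summed RPKM of the 6 genes with miR-199a-3p, 14.6% with miR-590-3p, 12.9% with miR-373-3p, 13.3% with miR-302d-3p, 13.3% with miR-33b* and 11.8% with miR-1825, against 7.66% with cel-miR-67. Ywhab made up 14.4% to 20.0%, against 13.4%. Ywhae made up 6.96% after miR-199a-3p and 15.5% to 17.9% after the other 5, against 18.2%, and Ywhag 3.21% after miR-199a-3p and 3.96% to 5.24% after the other 5, against 6.27%. Ywhaq, at 23.9% to 28.9%, stood below its 30.4% in cel-miR-67 in every miRNA library. Its RPKM was nevertheless above the control in all 6 (94.2 to 124.8 RPKM, against 93.1 RPKM). Shares have a fixed total, so higher shares of some members lower those of others. Ywhaz ranged from 19.6% to 24.9%, on both sides of its 24.1% in the control.

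**Figure D3:**
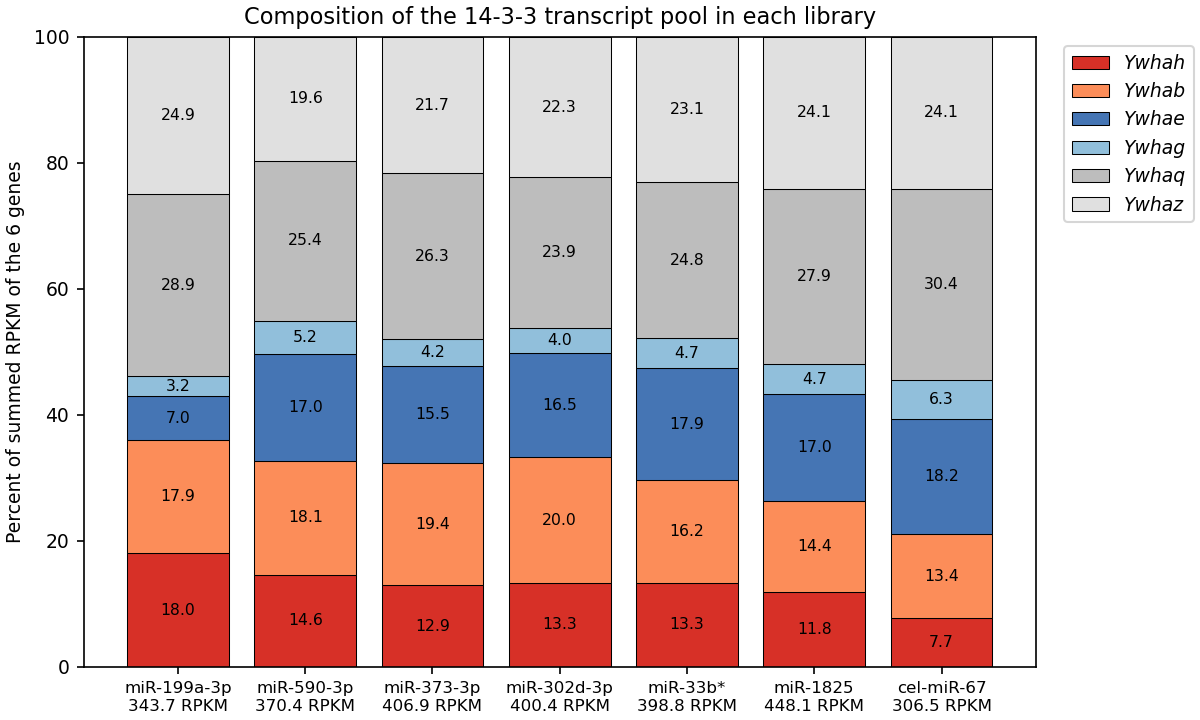
Percent of the summed RPKM of the 6 genes (vertical axis) contributed by each gene in each library, miRNA libraries on the left and cel-miR-67 on the right, with the sum in RPKM under each name. The Ywhah segment is 11.8% to 18.0% in the miRNA libraries and 7.66% in cel-miR-67, and the Ywhae segment narrows to 6.96% after miR-199a-3p.

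The ratio of Ywhah to each paralog within a library gives the same comparison gene by gene. Ywhah over Ywhaz was 0.491 to 0.741 in the miRNA libraries, against 0.318 (0.300 to 0.337) in cel-miR-67. Ywhah over Ywhaq was 0.425 to 0.623, against 0.252 (0.238 to 0.267), and Ywhah over Ywhag was 2.51 to 5.60, against 1.22 (1.14 to 1.31). Ywhah over Ywhae was 2.59 (2.42 to 2.76) after miR-199a-3p and 0.695 to 0.857 after the other 5, against 0.421 (0.394 to 0.449). Ywhah over Ywhab was 0.666 to 1.00, against 0.573 (0.537 to 0.610). In all 30 pairs of a paralog and a miRNA library the counting interval lay above that of the control. The smallest step was 1.16-fold, against Ywhab. All 30 pairs rest on the same Ywhah value of 1 control library and are no independent evidence.

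**Figure D4:**
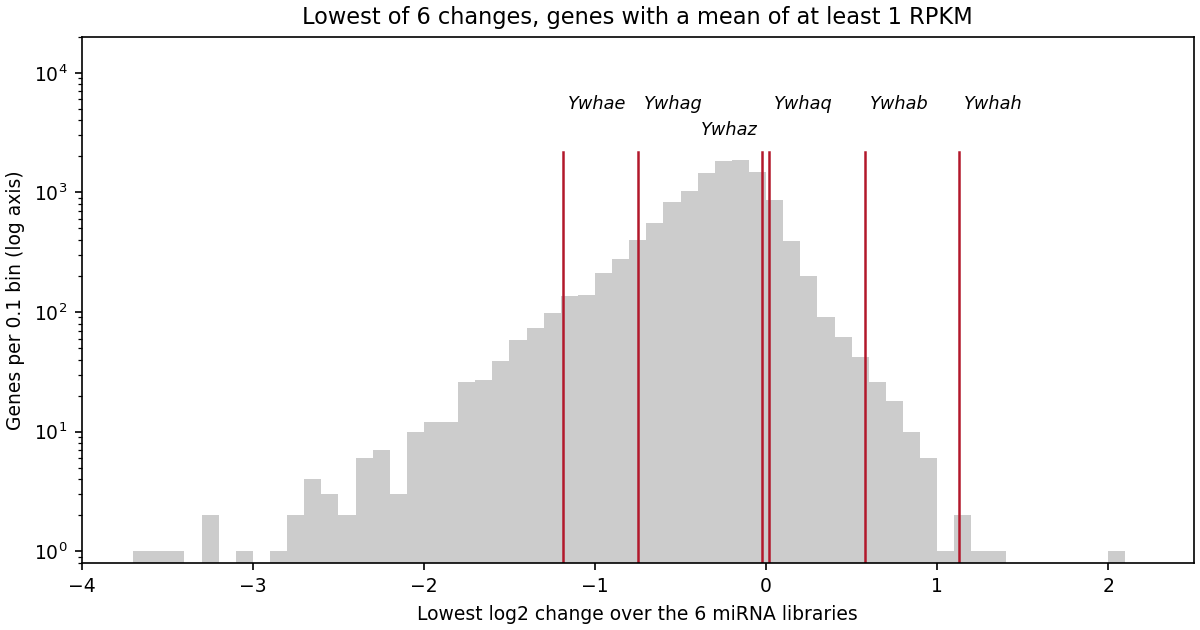
Number of genes (vertical log axis) by the lowest of their 6 log2 changes against cel-miR-67 (horizontal axis, bins of 0.1), for the genes averaging 1 RPKM or more. Red lines mark the 6 members, from Ywhae at -1.19 to Ywhah at 1.13, which lies in the sparse right tail.

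The remaining 14-3-3 gene, Sfn, encodes the sigma protein of epithelial cells and was the least abundant of the 7 genes. It ranged from 1.499 RPKM (30 reads, miR-1825) to 2.62 RPKM (53 reads, miR-199a-3p) in the miRNA libraries, against 2.95 RPKM (50 reads) in cel-miR-67. All 6 values were below the control, at log2 changes of -0.66 to -0.13. With equal sums over all genes the value for miR-199a-3p was 0.23, and -0.18 relative to the median of all genes, which that scaling lifted by 0.41 there. The interval of the ratio stayed below 1 after miR-590-3p (0.396 to 0.996), miR-302d-3p (0.336 to 0.808) and miR-1825 (0.312 to 0.814). In the RefSeq annotation Sfn overlaps the span of Zdhhc18, and the strand setting of the counting is not given in the sources used here, so reads of the 2 genes may be mixed.

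Genes with the profile most like that of Ywhah were ranked by the root mean square difference between log2 (RPKM + 1) profiles over the 7 libraries, each centred on its own mean, among 7435 other protein-coding genes averaging 5 RPKM or more. The closest was Mapk14, which encodes the stress kinase p38 alpha, with a difference of 0.148, at 9.09 to 11.8 RPKM in the miRNA libraries and 5.44 RPKM in cel-miR-67. The next 4 were Pigu, of the complex that attaches lipid anchors to proteins (0.151), the histone gene Hist1h2ak (0.156), Rpn1, a subunit of the enzyme that adds sugars to new proteins (0.161), and the reticulon gene Rtn3 of the endoplasmic reticulum (0.170). All 5 were above the control in all 6 libraries, with lowest changes of 0.65 to 0.76. The ranking itself sets this direction, because it includes the control library and Ywhah was picked for being above it. Of the paralogs, Ywhab came at place 33 (0.241), Ywhaz at 753 (0.371), Ywhaq at 1444 (0.398), Ywhag at 6547 (0.579) and Ywhae at 7181 (0.711).

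Proteins that 14-3-3 binds, and kinases that create its binding sites, were followed with 6 lists of 50 genes, of which 48 were found and 45 had a mean of at least 1 RPKM. None of the 45 was at least 1.5-fold higher, or lower, in all 6 libraries. Per library, 2, 1, 1, 2, 2 and 2 were at least 1.5-fold higher in the order of the miRNAs, or 2.22% to 4.44%, against 4.81%, 4.7%, 4.83%, 5.11%, 5.17% and 5.94% of all genes tested. In the same order 0, 3, 3, 2, 0 and 3 were at least 1.5-fold lower, or up to 6.67%, against 5.55%, 3.49%, 6.56%, 7.32%, 5.52% and 6.33%. The counts were at or near the background, and 7 of the 45 were above 0 and 5 below 0 in all 6 libraries, against 13.9% and 13.4% of all genes. With equal sums over all genes, which lift the median of all genes by up to 0.41, these counts were 13 and 0, against 32% and 2.51% of all genes, and none of the genes named below as under the control in all 6 stayed so. With equal sums outside the mitochondrial genome they were 6 and 4, against 15.3% and 11.6%. Akt2 was then no longer below in all 6, and Cacna1h was no longer above. The other genes named as above 0 in all 6 were so under every scaling tried.

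Among cell cycle partners (5 measured), the phosphatase gene Cdc25b was at 0.81, 0.84, 0.24, 0.28, 0.69 and 1.09 in the order of the miRNAs, and Cdc25c was at 0.14 to 0.72. Both were above 0 in all 6. Cdc25a was between -0.32 and 0.06, and Wee1, the kinase that opposes Cdc25, between -0.49 and 0.45. Of Hippo genes (6 measured), Yap1 was above 0 in all 6, at 0.25 to 0.45, below the 1.5-fold limit. Lats2, a kinase that phosphorylates YAP, was at -1.28 with miR-373-3p, at -1.27 with miR-302d-3p and between -0.35 and 0.16 otherwise. Lats1, its paralog, was at -0.55 to 0.07, and Stk4, the kinase that activates both, at -0.02 to 0.42. Survival and transcription partners (6 measured) lay close to the control, with a list median of -0.11 to 0.08, against -0.0030 to 0.015 over all genes. The transcription factor gene Foxo4 was at -0.62 with miR-1825 and -0.21 to 0.0040 otherwise. Foxo3 was at -0.17 to 0.28, the deacetylase gene Hdac5 at -0.38 to 0.08, and Bad, whose protein promotes cell death when 14-3-3 releases it, at -0.09 to 0.33.

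Of kinase signalling and metabolic partners (12 measured), Tbc1d1, a regulator of glucose transporter traffic, was above 0 in all 6 (0.10 to 0.58), and Pfkfb2, the heart form of the enzyme that makes the glycolytic activator fructose 2,6-bisphosphate, was below 0 in all 6 (-0.44 to -0.26), as was the stress kinase gene Map3k5 (-0.49 to -0.07). The insulin receptor substrate gene Irs1 was at -0.64 with miR-590-3p, -0.86 with miR-1825 and -0.37 to 0.23 otherwise. In the membrane and calcium handling list (5 measured), where not every gene is an established partner, the calcium channel gene Cacna1h stood at 6.0 RPKM with miR-373-3p, 7.39 RPKM with miR-302d-3p and 5.63 RPKM with miR-33b*, and at 1.958 to 2.24 RPKM in the other 3 miRNA libraries, against 1.94 RPKM with cel-miR-67. Phospholamban (Pln), the brake on the calcium pump, was at -0.86 with miR-590-3p and -0.95 with miR-1825 on the log2 scale. It was at 0.10 with miR-33b* and between -0.53 and -0.45 otherwise. The potassium channel gene Kcnh2 was at -0.52 to 0.095, and the pump gene Atp2a2 at -0.49 to 0.18. Among the 11 kinases, Pim1 was above 0 in all 6 (0.06 to 0.62), Akt2 (-0.67 to -0.02) and Sik1 (-0.56 to -0.07) were below 0 in all 6, and Prkaa2 was at -0.48 to 0.21. The list median was -0.30 with miR-373-3p and -0.40 with miR-302d-3p, against 0.0070 and 0.015 over all genes, and -0.15 to 0.06 in the other 4 comparisons.

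**Figure D5:**
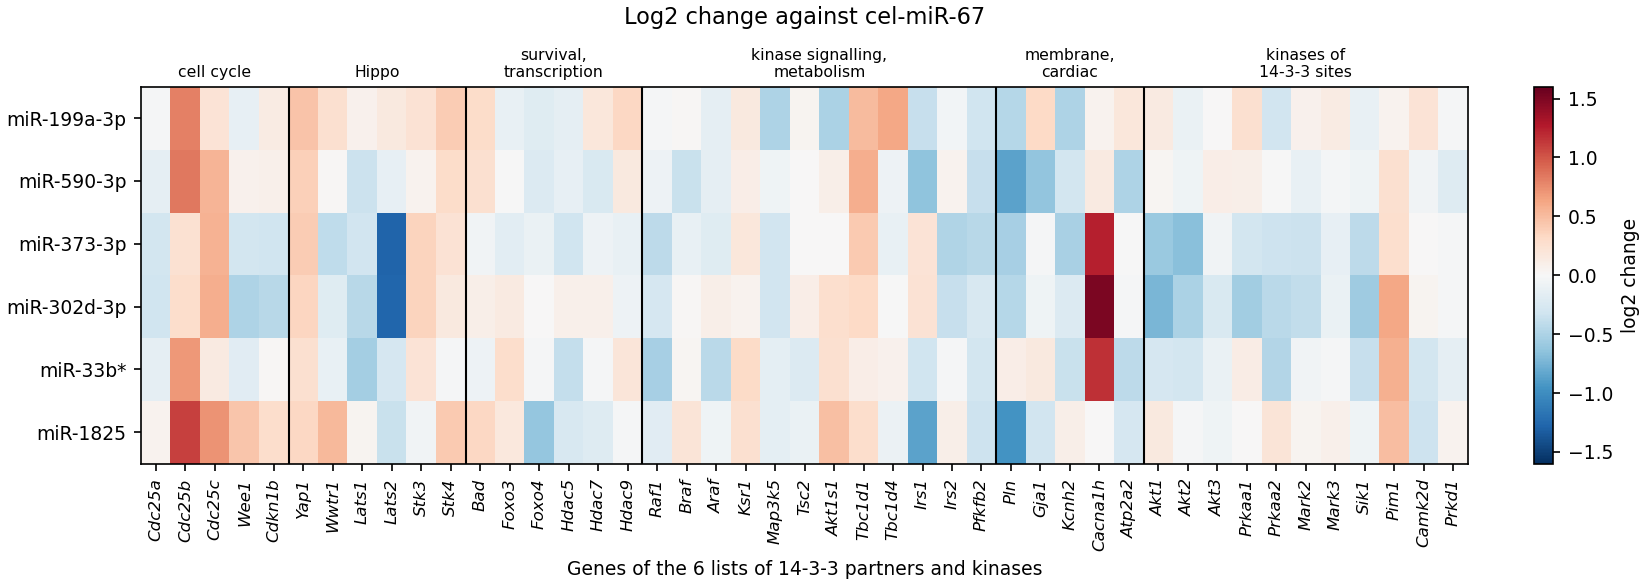
Log2 change against cel-miR-67 (colour, from blue for lower to red for higher) of the 45 measured genes of the 6 lists, in columns grouped by list, with the 6 miRNA libraries as rows. Cdc25b is above 0 in every row but pale in the rows of the seed-sharing pair, where Lats2 is dark blue. Cacna1h is red in the rows of that pair and of miR-33b*, and most other cells are pale.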

How the data were processed

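The authors deposited RPKM (a read number per gene length and library size) for 7 libraries in 1 table, and the 7 files of single libraries held equal values. Per the submitters' processing notes, STAR 2.7, edgeR and the build Rnor_6.0 were used, with no role given. For the read counter, annotation, strand setting and filters, nothing is given in the sources used here. RPKM are whole reads divided by gene length and library size. Sizes and lengths giving whole reads in all libraries, within 0.002 to 0.05 reads, were found for 100% of genes. Intervals are exact conditional (Clopper-Pearson) for ratios and exact Poisson for levels, at 95%. Changes use a pseudocount of 1 RPKM. Counts over all genes cover those averaging 1 RPKM or more. The 6 members, the lists, the markers and the alternatives were chosen with earlier results of these data known. Named from each list were up to 4 genes with the largest absolute median change. Marker and partner genes without a row were not analysed here. Python 3.11.15, numpy 2.4.6, pandas 2.3.3, scipy 1.17.1 and matplotlib 3.10.9 were used. RefSeq (GRCr8) supplied sequences for miR-199a-3p and 5 promoters, by name.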

Additional observations from a re-analysis of the deposited data

How the results depend on the processing

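Median-of-ratios scaling and counting over all listed genes moved no value of the 6 members beyond its counting interval and no count by over 1.5 times. Ywhah ran from 1.13 to 1.36. With a pseudocount of 5 these ends were 1.01 and 1.23, with equal sums over all genes the higher was 1.83, and with equal sums outside the mitochondrial genome it was 1.47. Equal sums over all genes shifted the median of all genes by 0.02 to 0.41. With the 5 remaining miRNA libraries, averaged, as the reference, Ywhah ran from -0.065 to 0.21, since that reference leaves the control out by construction. The summed level ran from 0.30 to 0.71 with equal sums over all genes, and from 0.27 with equal sums outside the mitochondrial genome. The count of members at least 1.5-fold higher in all 6 was 2 with a pseudocount of 0.1, with either equal-sum scaling and with a limit of 0.32 on the log2 scale. Member and library pairs at least 2-fold lower numbered 0 with equal sums over all genes. List gene and library pairs at least 1.5-fold higher and lower numbered 10 and 11 of 270 (3.7% and 4.07%, against 5.09% and 5.79% of such pairs over all genes). They numbered 16 and 17 with a pseudocount of 0.1 (5.93% and 6.3%, against 7.38% and 8.39%) and 4 and 6 with 5 (1.48% and 2.22%, against 2.1% and 2.26%). With equal sums over all genes they numbered 40 and 7 (14.8% and 2.59%, against 12.9% and 3.08%). As shares of reads not divided by length, Ywhah was 13.9% to 20.5% in the miRNA libraries and 8.98% in cel-miR-67. The cause of the other shifts was not tested. The genes past the 1.5-fold limit in all 6 libraries numbered 72 upward and 26 downward. With a pseudocount of 0.1 these were 129 and 52, and with 5 they were 17 and 5. They were 161 and 3 with equal sums over all genes, and 74 and 20 with equal sums outside the mitochondrial genome. A limit of 0.32 on the log2 scale gave 234 and 165. No paired analysis was possible because each group is 1 library.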
